A study of Mus musculus with 4 samples.

Results

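Oocyte transcripts were followed through 4 single-cell RNA libraries of the mouse ovary, in the few barcodes called oocyte barcodes from other oocyte genes and in all other cells. The 9 transcripts, of 32285 genes in the deposited matrices, were Zp1, Zp2, Zp3, Gdf9, Bmp15, Ooep, Padi6, Nlrp5 and Oosp1. They were taken by name from a list set with earlier results of these data known. Ovaries came from 8-week-old female littermates, 2 libraries from Fosl2F/F mice (the WT controls of the labels, Fosl2flox/flox) and 2 from Fosl2cKO mice (Cyp19a1-Cre; Fosl2flox/flox). All 4 libraries thus carry the floxed allele, with LoxP sites around exons 2 to 4 of Fosl2, and only the Fosl2cKO mice carry the Cre, which the Cyp19a1 promoter drives in granulosa cells (GCs) and not in oocytes. The suspensions were passed through a 70 µm strainer and loaded on the 10x Genomics 3′ platform, and each library was taken as 1 replicate. The authors give n = 2 per group for this experiment, which matches the 2 libraries per group. The labels do not name the animal of each library, so libraries, not animals, are the units of the tests. The p-values of edgeR also draw on the spread of other genes. Values for 4 libraries are given in the order 1st and 2nd Fosl2F/F, 1st and 2nd labelled Fosl2cKO.

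The mammalian oocyte grows inside a follicle, stores maternal RNA and protein for the embryo and signals to the GCs around it. Zp1, Zp2 and Zp3 encode the glycoproteins of the zona pellucida, the coat that surrounds the oocyte and binds sperm. Gdf9 and Bmp15 are secreted factors of the TGF-β family that act on receptors of GCs. Ooep and Nlrp5 (MATER) are subunits of the subcortical maternal complex, Padi6 is needed for the cytoplasmic lattices of the egg, and Oosp1 encodes a protein secreted by oocytes.

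The genes lie on 7 chromosomes of GRCm38 (GENCODE M21), and all are protein coding. Zp1 (ENSMUSG00000024734) is at chr19:10914287-10920632 and Oosp1 (ENSMUSG00000041857) at chr19:11667460-11691150, both on the minus strand. Zp2 (ENSMUSG00000030911) is at chr7:120126772-120145291 on the minus strand, and Nlrp5 (ENSMUSG00000015721) at chr7:23385889-23441922 on the plus strand. Zp3 (ENSMUSG00000004948) is at chr5:135980099-135988624 and Gdf9 (ENSMUSG00000018238) at chr11:53431023-53437904, both on the plus strand. Bmp15 (ENSMUSG00000023279) at chrX:6314107-6320721, Ooep (ENSMUSG00000032346) at chr9:78376109-78378725 and Padi6 (ENSMUSG00000040935) at chr4:140727355-140742643 are on the minus strand. Nlrp5 alone overlaps another gene, the miRNA gene Gm25196 on the same strand, so its UMIs carry that uncertainty.

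Promoters of oocyte genes are known for an E-box, which FIGLA binds, and for a homeobox element, which NOBOX binds. RefSeq promoters (GRCm38.p6, 250 bases before to 50 bases after the start) were matched for 6 of the 9 genes, and the 250 bases before the start were searched on both strands. The same 6 letters cannot match both motifs. The entries for Zp1, Zp2 and Gdf9 are missing. The E-box CANNTG was found in all 6, against 66.2% of 32851 promoters. The NOBOX element TAATTG or TAATTA was found in 3 of them, those of Bmp15, Ooep and Nlrp5, against 11.3% of all promoters. Stretches of 30 bases are given below, on the strand of the gene from 5′ to 3′, because these transcripts are read together throughout. In capitals is 1 match for each gene, the one of the motif named that lies nearest the start. The stretch of Oosp1 also holds another E-box, CACCTG, in small letters.
Zp3, E-box, plus strand, chr5:135980038-135980067: gcagagggaattCAGGTGggagggtgggcc
Padi6, E-box, minus strand, chr4:140742704-140742733: ctcctccaggctCACCTGtgaacccttaac
Oosp1, E-box, minus strand, chr19:11691082-11691111: ccacctgcaggtCATCTGctccagcacata
Bmp15, NOBOX element, minus strand, chrX:6320932-6320961: cagcagcatcaaTAATTAttttatttattt
Ooep, NOBOX element read on the other strand, minus strand, chr9:78378766-78378795: aggaggtgattcCAATTAagccaccaaatc
Nlrp5, NOBOX element, plus strand, chr7:23385688-23385717: aagaatacaatcTAATTAaggggaggggcg
The RefSeq starts of Padi6 and Nlrp5 are the GENCODE starts, those of Zp3 and Bmp15 lie within 6 bases of them, and those of Ooep and Oosp1 lie 137 and 99 bases inside the GENCODE gene. The stretch shown for Oosp1 is thus within the GENCODE gene. A match says that these letters are there and says nothing about binding.

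The libraries held 120327227 to 148836173 UMIs (unique molecules counted) in 8654 to 28155 barcodes. After the cell filters 8150, 19575, 6760 and 7053 cells were kept, with median depths of 11177, 3655, 12297 and 12465 UMIs. The 2nd Fosl2F/F library stands apart, with the most barcodes and the lowest depth. The number removed as doublets was set by the number of cells, and was 4723 there and 412 to 614 in the others. The condition's effects on the 9 genes are therefore given with and without it. Between 10 and 38 kept barcodes had the same sequence in 2 libraries, and 0 of these were oocyte barcodes. Levels are given as CPM, the UMIs of a gene per 1000000 UMIs of the cells summed. Fosl2 was not lower in the libraries labelled Fosl2cKO by the test used here, in GC-like cells (161, 167, 167 and 115 CPM, log2 fold change −0.25, SE 0.20, edgeR quasi-likelihood test, adjusted p = 1.0). The groups are therefore called as labelled. By immunoblot the authors show depletion of Fosl2 protein in GCs of Fosl2cKO mice, a measure other than the RNA counted here. In oocyte barcodes Fosl2 had 3, 25, 1 and 0 UMIs.

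Oocyte barcodes were found without the 9 genes. A kept cell was called an oocyte barcode when it had at least 10 UMIs from at least 5 genes of a list of 27 other oocyte genes (26 found, among them Dppa3, Zar1, Oog1, Obox1, Ddx4 and Dazl), making up at least 0.5% of its UMIs. This gave 29, 73, 19 and 13 oocyte barcodes, 134 of 41538 cells. Every one of the 134 had UMIs of at least 2 of the 9 genes, and 20 had all 9. They were shallow, with medians of 1754, 1527, 1706 and 5189 UMIs, against 11213, 3663, 12350 and 12489.5 in the other cells. Whether each of them holds a whole oocyte was not tested. The list made up a median of 2.82%, 1.73%, 3.13% and 2.94% of their UMIs. Their median mitochondrial share was 3.61%, 2.29%, 3.69% and 0.354%, so the 2nd library labelled Fosl2cKO had the deepest median and the lowest mitochondrial share. A cluster found without the 9 genes and named oocyte-like held 104 of the 134, and 28 of the 30 left out were in the 2nd Fosl2F/F library, where the list made up a median of 0.683% of their UMIs. Just inside the threshold, 27 barcodes of that library with 0.5% to 1% of UMIs from the list held the 9 genes at 3901 CPM. Just outside it, 100 barcodes of the same library with 0.2% to 0.5% held 2205 CPM.

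Oocyte barcodes were 0.356%, 0.373%, 0.281% and 0.184% of the cells kept, with exact 95% binomial intervals of 0.238% to 0.511%, 0.292% to 0.469%, 0.169% to 0.439% and 0.0982% to 0.315%. The means were 0.364% ± 0.0121 (SD, n = 2) in the Fosl2F/F libraries and 0.233% ± 0.0684 (SD, n = 2) in those labelled Fosl2cKO. Both Fosl2F/F shares were above both others. The exact permutation test gave a two-sided p of 0.33 for this difference of −0.132 percentage points, the smallest p that 2 against 2 allows. By the oocyte-like cluster the shares were 0.368%, 0.271%, 0.325% and 0.213%, and the groups overlapped. They overlapped too by a stricter rule (at least 20 UMIs and 2%), at 0.319%, 0.169%, 0.281% and 0.184%. By a looser rule (at least 5 UMIs of 3 genes and 0.2%) they did not, at 0.380%, 0.884%, 0.325% and 0.241%. The 2nd Fosl2F/F library moved most between the rules. Intervals here and below cover counting error only.

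The 9 transcripts are abundant in oocyte barcodes and are found at a low level everywhere else, as the plot of their levels shows. In oocyte barcodes they made up 14163, 13928, 15708 and 19046 CPM together. In the other cells, without the epithelial-like cells and the 16 cells of the oocyte-like cluster described below, they made up 19.5, 98.5, 6.35 and 23.9 CPM. In UMIs these were 1095, 3722, 577 and 1360 in oocyte barcodes and 2067, 9956, 684 and 2470 in the other cells. Of all UMIs of the 9 genes, those of barcodes that failed a filter, doublets and epithelial-like cells counted in, 23.0%, 18.3%, 24.5% and 28.2% were in oocyte barcodes (mean 23.5% ± 4.12, SD, n = 4). Of the UMIs in kept cells alone, the oocyte barcodes held 29.7%, 25.7%, 30.01% and 33.0%.

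**Figure D1:**
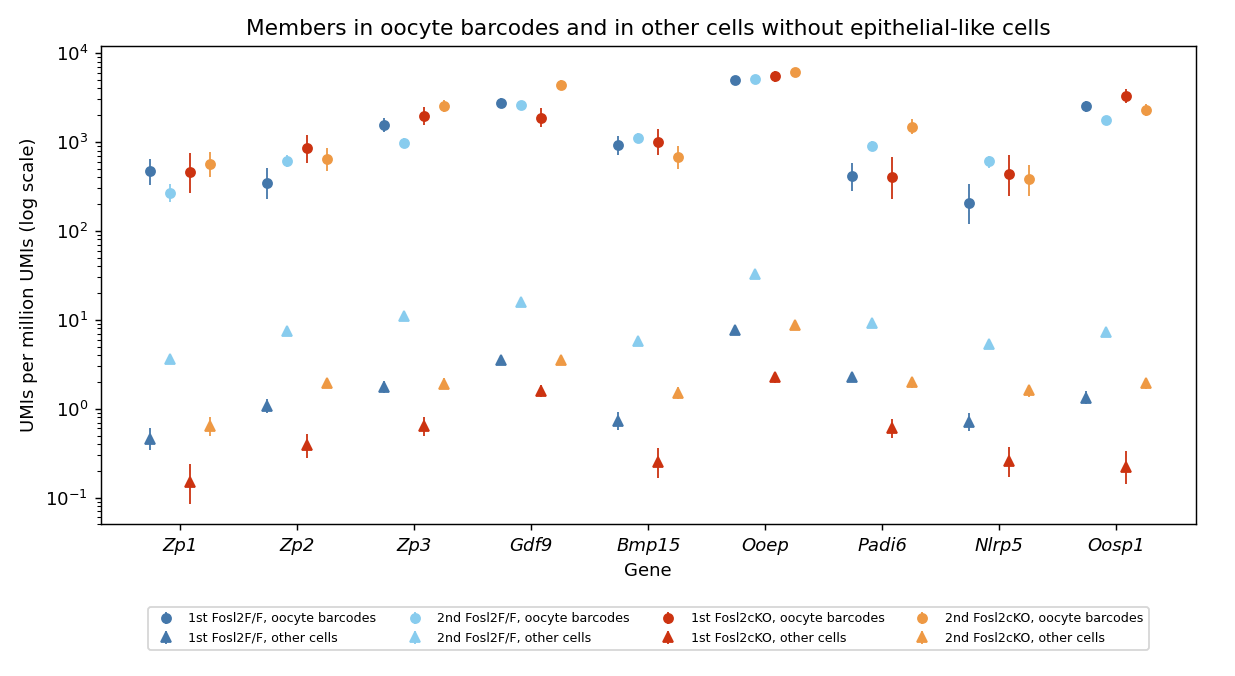
CPM (log axis) of each gene in oocyte barcodes (circles) and in other cells without epithelial-like cells (triangles), 1 point per library, with exact 95% Poisson intervals as bars. Each circle lies above every triangle of its gene, with ratios within a library from 74.6 to 14669, and the 2nd Fosl2F/F library has the highest triangle for all 9 genes.

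Levels were compared between genes per kilobase of transcript, taking 1 transcript of each gene, from 972 bases for Oosp1 to 3508 for Nlrp5. Ooep and Oosp1 stood at the top with means of 2528 and 2527 CPM per kilobase in oocyte barcodes. Gdf9 followed at 1621 and Zp3 at 1326, and the other 5 ranged from 116 for Nlrp5 to 345 for Padi6 on the same scale. Neighbours in this order overlapped between libraries, except that every value of Zp3 was above every value of Padi6. A 3′ assay counts transcript ends, so the division by length is itself a choice.

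In CPM of the oocyte barcodes, Ooep had 4992, 5093, 5445 and 6092 (mean 5406 ± 497, SD, n = 4). It varied least of the 9 between libraries relative to its mean, and was found in 29 of 29, 67 of 73, 19 of 19 and 13 of 13 oocyte barcodes. Nlrp5, also a subunit of the subcortical complex, had 207, 602, 436 and 378 CPM, and was found in 31.0%, 37.0%, 36.8% and 61.5% of the oocyte barcodes. Such shares were not thinned to equal depth. The median was 5189 UMIs in the 2nd library labelled Fosl2cKO and 1527 to 1754 in the others. Padi6 had 414, 909, 408 and 1484 CPM (mean 804 ± 511), the widest spread of the 9 relative to the mean, and 185 of the UMIs behind the 909 were in 2 deep barcodes described below.

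Among the secreted factors, Gdf9 had 2742, 2604, 1878 and 4397 CPM in oocyte barcodes (mean 2906 ± 1064, SD, n = 4). Bmp15 had 918, 1115, 1007 and 672 (mean 928 ± 189). For both the values of the 2 groups overlapped. Oosp1 had 2522, 1755, 3267 and 2283 CPM (mean 2457 ± 628), again with overlap.

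Of the zona genes, Zp3 had 1552, 969, 1960 and 2535 CPM in oocyte barcodes (mean 1754 ± 661, SD, n = 4), Zp2 had 349, 610, 844 and 644 (mean 612 ± 203), and Zp1 had 466, 269, 463 and 560 (mean 440 ± 122). Both Fosl2cKO values of Zp2 and Zp3 were above both Fosl2F/F values, as for 25.9% of all genes tested in oocyte barcodes, while the groups overlapped for Zp1. Zp3 was found in 93.1%, 61.6%, 84.2% and 100% of the oocyte barcodes and Zp1 in 41.4%, 35.6%, 47.4% and 84.6%, again without thinning to equal depth.

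Few deep barcodes carry much of these sums. In the 2nd Fosl2F/F library 2 of the 73 oocyte barcodes, with 48885 and 74865 UMIs, held 46.3% of the UMIs of its oocyte barcodes and 62.7% of those of the 9 genes (2332 of 3722). No oocyte barcode of the other libraries was above 20000 UMIs, and the largest there held 16.8%, 15.1% and 23.5% of the UMIs of their set. Without these 2 barcodes the 9 genes made up 9687 CPM in that library, below the 14163, 15708 and 19046 of the other 3. Over single oocyte barcodes, the median level of the 9 genes was 14255, 11080, 12174 and 17768 CPM, and the range over all 134 was 1161 to 29485. Ooep was at 3729 and Gdf9 at 1833 CPM in the 71 barcodes that remain, below their values in the other 3 libraries, and so was Bmp15, at 613 in place of 1115. Padi6 was at 404 in place of 909, close to the 414 of the 1st Fosl2F/F library.

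Outside oocyte barcodes every one of the 9 genes was found in every library. Ooep had 7.60, 32.7, 2.25 and 8.82 CPM in other cells without epithelial-like cells, and Gdf9 had 3.52, 16.01, 1.59 and 3.498. Both were highest in the 2nd Fosl2F/F library and lowest in the 1st library labelled Fosl2cKO, and the other 7 genes had the same highest and lowest library. Zp3 had 1.76, 11.1, 0.640 and 1.91 CPM, Oosp1 had 1.33, 7.28, 0.223 and 1.93, and Padi6 had 2.27, 9.30, 0.603 and 1.99. Zp2 had 1.07, 7.39, 0.390 and 1.95, Bmp15 had 0.734, 5.73, 0.251 and 1.52, Nlrp5 had 0.706, 5.35, 0.260 and 1.60, and Zp1 had 0.461, 3.61, 0.148 and 0.638.

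The ratio of oocyte barcodes to other cells differed widely between libraries. Over the 9 genes it ran from 182 to 1901 in the 1st Fosl2F/F library, from 74.6 to 241 in the 2nd, from 677 to 14669 in the 1st library labelled Fosl2cKO and from 236 to 1325 in the 2nd. Oosp1 had the highest ratio in 3 libraries and Zp3 in the other, and the lowest was that of Padi6 in 2 libraries, of Zp1 in the 2nd Fosl2F/F library and of Nlrp5 in the 2nd labelled Fosl2cKO. The 14669 for Oosp1 rests on 24 UMIs in other cells.

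Most of these UMIs were single. A UMI of any of the 9 genes was found in 21.3%, 36.1%, 8.22% and 24.7% of the other cells, and 85.7%, 74.5%, 92.4% and 82.7% of those cells had just 1. Between the shallowest cells (1000 to 2000 UMIs) and the deepest (above 20000 UMIs) the level in CPM was lower and the number of UMIs per cell higher in the deep cells in 4 of 4 libraries, though not at every step between. The 9 genes had 96.9, 265, 27.8 and 141 CPM in the shallowest cells and 11.8, 27.0, 4.32 and 20.8 in the deepest. Per 1000 cells they had 145, 398, 40.6 and 206 UMIs in the shallowest and 354, 913, 148.6 and 635 in the deepest. In the deepest cells of the 2nd library labelled Fosl2cKO, 336 of the 1082 UMIs of the 9 genes were in 1 barcode, described below. Barcodes up to 1000 UMIs that failed the filter and did not meet the oocyte rule had 479, 565, 81.0 and 345 CPM. RNA set free into a suspension is known to enter droplets with any cell, and its part in these values was not tested, because droplets without cells were not analysed here.

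Few of the other cells held 10 or more UMIs of the 9 genes, namely 2, 27, 4 and 3 barcodes. Without them the level was 19.2, 94.6, 5.44 and 20.3 CPM. The largest was a GC-like barcode of the 2nd library labelled Fosl2cKO with 99965 UMIs, of which 336 were of the 9 genes, among them 130 of Ooep, 67 of Nlrp5, 49 of Zp2 and 45 of Padi6. This barcode had 0 UMIs of Oosp1 and 0 of Bmp15, and 0.391% of its UMIs were from the list of 27, just under the threshold of the rule. Its name depends on the clustering. Without integration the GC-like cells of that library had at most 4 UMIs of Ooep, so it was not among them.

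The make-up of the 9 transcripts in oocyte barcodes and in other cells is shown in the plot of shares, and 0 of the 9 genes passed the test given with them, which could not pass at this number of libraries. Ooep took 35.3%, 36.6%, 34.7% and 32.0% of the 9 genes' UMIs in oocyte barcodes, and 39.1%, 33.2%, 35.4% and 37.0% in other cells without epithelial-like cells. Its log2 ratio of the shares averaged 0.06 ± 0.15 (SD, n = 4), and the shares in the 2 places overlapped. Oosp1 took 17.8%, 12.6%, 20.8% and 11.99% in oocyte barcodes and 6.82%, 7.39%, 3.51% and 8.10% in other cells. It was lower in other cells in 4 of 4 libraries, with a mean log2 ratio of −1.32 ± 0.90.

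Padi6, Nlrp5 and Zp2 took a larger part in other cells in 4 of 4 libraries. Padi6 had 2.92%, 6.53%, 2.60% and 7.79% in oocyte barcodes and 11.7%, 9.44%, 9.503% and 8.34% in other cells, a mean log2 ratio of 1.12 ± 0.95. For Nlrp5 the mean log2 ratio was 0.99 ± 0.66 and for Zp2 it was 0.85 ± 0.49. Without the barcode of 336 UMIs of the 9 genes, left out after its values were seen, the share of Padi6 in the 2nd library labelled Fosl2cKO was 7.54%, below that in its oocyte barcodes, so Padi6 was higher in 3 of 4 libraries (mean log2 ratio 1.09, exact sign-flip permutation p = 0.25). The share of Nlrp5 there was 4.64% in place of 6.72%, and Nlrp5 and Zp2 stayed higher in 4 of 4. With that barcode in, the exact sign-flip permutation test over the 4 libraries gave p = 0.125 for Oosp1, Padi6, Nlrp5 and Zp2, the smallest two-sided p that 4 libraries allow, and adjusted p = 0.281 over the 9 genes. Each of the other 5 genes had a larger share in some libraries and a smaller one in others, with mean log2 ratios from −0.27 for Bmp15 to 0.06 for Ooep.

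**Figure D2:**
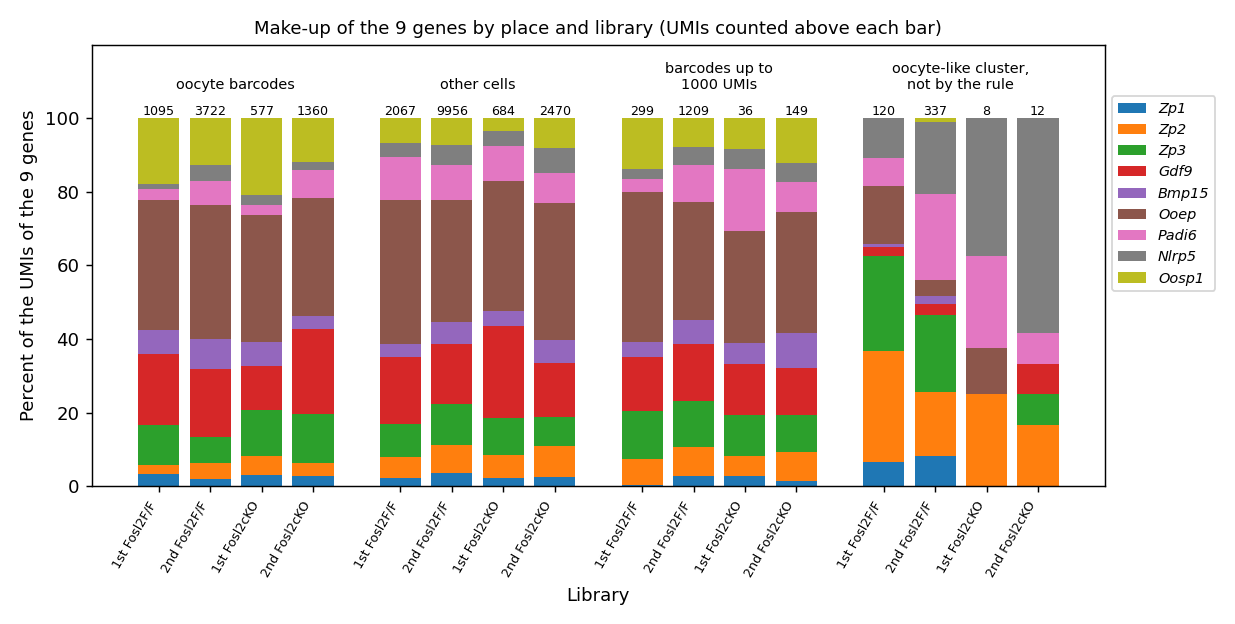
Share of each gene in the UMIs of the 9 genes (percent), in oocyte barcodes, in other cells without epithelial-like cells, in barcodes up to 1000 UMIs outside the oocyte rule and in the 16 cells of the oocyte-like cluster that did not meet it, 1 bar per library with its UMIs above. In the first 2 sets Ooep takes 32.0% to 39.1%, while Oosp1 falls from 11.99% to 20.8% in oocyte barcodes to 3.51% to 8.10% in other cells.

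A small group of barcodes differed in make-up from the oocyte barcodes summed by library. The oocyte-like cluster held 16 kept cells that did not meet the oocyte rule (3, 8, 3 and 2 per library), with a median of 4243.5 UMIs. Together they had 477 UMIs of the 9 genes, of which Zp3 took 21.6%, Zp2 20.5%, Padi6 19.1% and Nlrp5 18.7%. Ooep took 7.34%, Gdf9 2.94%, Bmp15 1.68% and Oosp1 0.629%. Each of these last 4 pooled shares is below the range of that gene in the oocyte barcodes of the 4 libraries. The pool is mostly of the Fosl2F/F libraries, with 120, 337, 8 and 12 UMIs per library, and 115 of the first 120 were in 1 barcode. By library the shares varied widely, from 0% to 25.8% for Zp3 and from 10.8% to 58.3% for Nlrp5. The make-up was not confined to the 16. An oocyte barcode of the 2nd Fosl2F/F library with 9962 UMIs had 10 of Zp2, 11 of Zp3, 10 of Padi6 and 12 of Nlrp5. It had 1 of Ooep, 1 of Bmp15 and 0 of Gdf9 and Oosp1. The barcode of 99965 UMIs above also had 0 of Oosp1 and Bmp15, but 130 of Ooep. The 16 cells came from a cluster, and all these barcodes were set apart after their values were seen, so no test is given.

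Among the cell types outside the oocyte, Ooep stood out in epithelial-like cells. These 689 cells (101, 321, 167 and 100 per library) were named from Krt8, Krt18, Krt19, Upk1b, Upk3b, Msln, Gpm6a and Lgals7, markers of the ovarian surface epithelium and mesothelium. Ooep had 233, 114, 173 and 156 CPM there (mean 169 ± 49.4, SD, n = 4), against 7.60, 32.7, 2.25 and 8.82 in the other cells, 3.47 to 77.0 times as high. Of 12 classes the epithelial-like cells had the highest level of Ooep in 3 libraries. In the 2nd Fosl2F/F library B lymphocyte-like and NK or T-like cells were at 125 and 121 CPM, on 5 and 45 UMIs of Ooep, where the epithelial-like cells had 330. As the cells were clustered, this is a description with no test.

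The other 8 genes differed less. Together they had 19.6, 48.6, 13.7 and 19.5 CPM in epithelial-like cells and 11.8, 65.8, 4.10 and 15.0 in the other cells, so they were higher in epithelial-like cells in 3 of 4 libraries. Gdf9 was the next most marked, with 9.47, 19.6, 11.4 and 8.80 CPM in epithelial-like cells, 1.23 to 7.19 times the level in the other cells in 4 of 4 libraries. Each of the genes left was higher there in 0 to 2 of the 4 libraries, so the sum of the 8 does not stand for each of them. Zp2 had 1, 13, 0 and 1 UMIs in epithelial-like cells, too few to give a direction in 3 of the 4 libraries. The plot of levels by class shows Ooep beside the other 8.

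**Figure D3:**
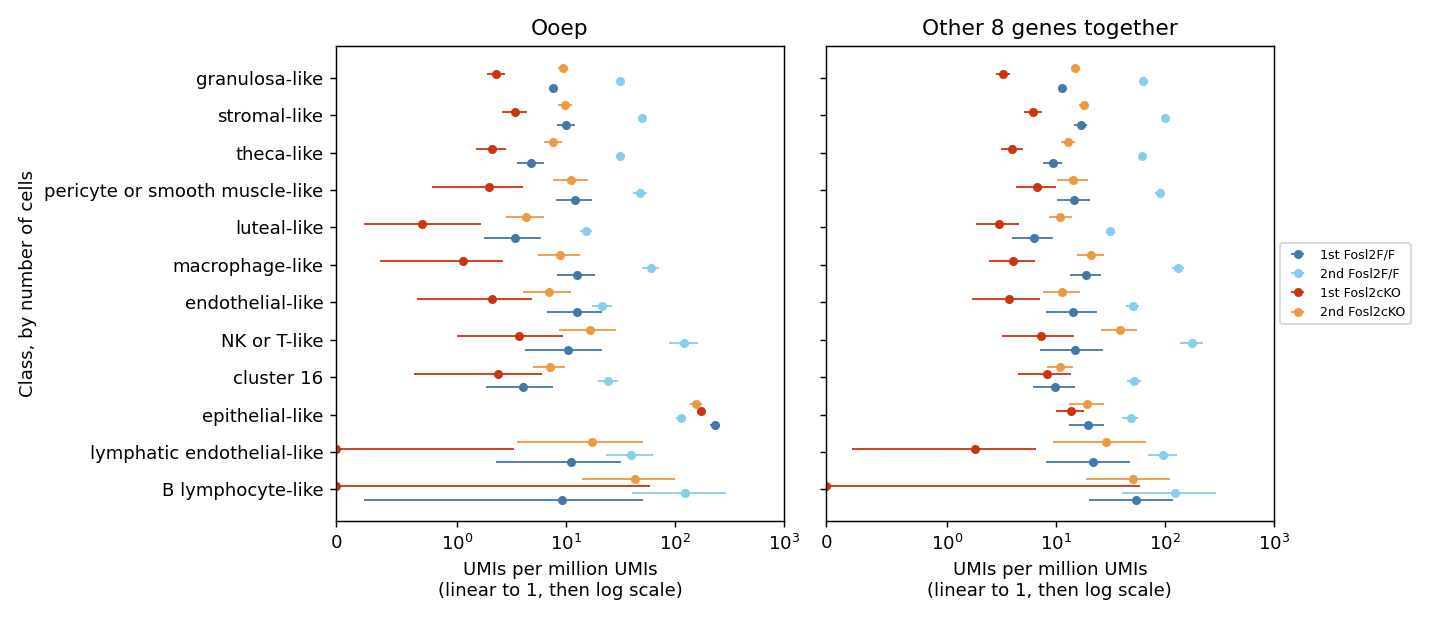
CPM of Ooep (left) and of the other 8 genes together (right) in 12 classes of other cells, 1 point per library with its exact 95% Poisson interval, on an axis that is linear to 1 and logarithmic above. In epithelial-like cells Ooep lies at 114 to 233, while the other 8 together lie at 13.7 to 48.6 there.

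Ooep was also found in many single epithelial-like cells. A UMI of Ooep was in 64.4%, 44.9%, 61.1% and 59.0% of them, at median depths of 8144, 3780, 13391 and 10434 UMIs. In GC-like cells, which were deeper in every library, the share was 4.36% to 15.0%. With each cell thinned to 2000 UMIs, which kept 94, 239, 166 and 98 epithelial-like cells, the share was 20.8% to 28.1% in them and at most 11.04% in any other class and library. Ooep was thus found in more epithelial-like cells than in cells of the other classes at equal depth.

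Some of these cells held Ooep nearly alone among the 9 genes. The 54 kept cells outside the oocyte barcodes with at least 8 UMIs of Ooep and at most 5 of the other 8 genes were all epithelial-like. The 54 (13, 5, 27 and 9 per library) held 799 UMIs of Ooep, 26 of Gdf9 and 4 of the other 7 genes. The excess of Ooep over the other 8 genes in them was set by how they were picked. The 54 cells had a median depth of 36356 UMIs, above the class medians of 3780 to 13391, and the part that doublets have in them was not tested.

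**Figure D4:**
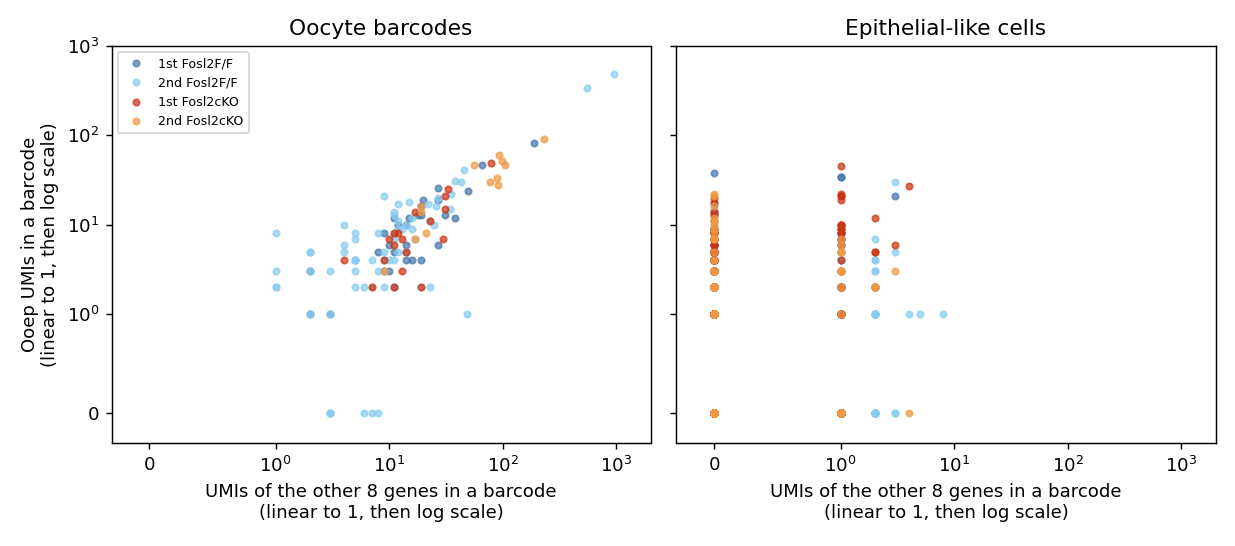
UMIs of Ooep against UMIs of the other 8 genes in single barcodes, for oocyte barcodes and for epithelial-like cells of all 4 libraries. Oocyte barcodes spread along both axes, while epithelial-like cells reach up to 45 UMIs of Ooep beside few UMIs of the other 8.

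Whether the condition changes the oocyte transcripts was asked in 5 fits on UMIs summed per library, the last of them in GC-like cells. With edgeR's quasi-likelihood test, genes were called whose adjusted p was under 0.1 and whose log2 fold change was larger than 0.25 either way. Over all barcodes, which needs no choice of cells, 0 of the 9 genes passed, and of all 20735 genes tested 0.00482% did. In such a sum fewer oocytes and less RNA per oocyte cannot be told apart. The levels were lower in the libraries labelled Fosl2cKO for all 9 genes, with log2 fold changes from −1.35 for Ooep to −2.05 for Zp1 (SE 0.46 to 0.91, adjusted p = 1.0). Ooep had 16.6, 46.8, 10.0 and 15.4 CPM, Zp3 had 3.74, 14.9, 1.46 and 3.73, and Oosp1 had 3.81, 11.6, 1.504 and 3.60. For these 3 genes both Fosl2cKO values were below both Fosl2F/F values, against 12% of all genes in that direction, and for the other 6 the groups overlapped. With the replicate number as a block Padi6 passed over all barcodes, where 0.28% of all genes did. The 2nd Fosl2F/F library was the high one for all 9. Without it the log2 fold changes ran from −0.69 for Oosp1 to −0.27 for Bmp15 in 8 genes, with −0.50 for Ooep and −0.55 for Zp1, and that of Nlrp5 was 0.0072.

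Within oocyte barcodes the levels showed no called difference. The part that depth and mitochondrial share have in this comparison, which set the 2nd library labelled Fosl2cKO apart, was not tested. Of the 9 genes 0 passed, as against 1.66% of the 1873 genes tested (31 genes), and log2 fold changes ran from −0.49 for Bmp15 (SE 0.40) to 0.69 for Zp3 (SE 0.41). The adjusted p was 0.708 for Zp3 and 0.828 to 0.996 for the other 8. In CPM, Zp2, Zp3 and Ooep were higher in both libraries labelled Fosl2cKO than in both Fosl2F/F libraries, 3 of 9, while 25.9% of all genes tested were. The log2 fold changes are those after edgeR's scaling of the libraries, which CPM does not have. By them Ooep, at 0.02 (SE 0.42), and Gdf9, at 0.07 (SE 0.46), were the closest to no change. Without the 2 deep barcodes of the 2nd Fosl2F/F library the values were −0.13 for Bmp15, 0.68 for Zp3 and 0.99 for Padi6, and 0 of 9 passed (lowest adjusted p = 0.411), as against 6.0% of the 1850 genes tested. Without that library they ran from −0.28 for Bmp15 to 1.10 for Padi6, and 0 of 9 passed (lowest adjusted p = 0.878).

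In the other cells 0 of 9 passed, and 0.00494% of 20237 genes did. All 9 log2 fold changes were negative, from −1.35 for Ooep (SE 0.50) to −2.53 for Zp1 (SE 1.01), with adjusted p = 0.999 for each. Without epithelial-like cells and the 16 cells Ooep was at −1.90 (SE 0.82, adjusted p = 0.987). Here both Fosl2cKO values were below both Fosl2F/F values for Zp3, Gdf9, Ooep and Padi6, 4 of 9, against 11.9% of all genes, counting in epithelial-like cells and the 16 cells of the oocyte-like cluster. Without those 16 cells it held for Gdf9 and Padi6 only, 2 of 9. With the replicate number as a block Zp3, Padi6 and Oosp1 passed in other cells, where 0.277% of all genes did. The spread within each group was wide, as the values per library above show. Without the 2nd Fosl2F/F library the log2 fold changes ran from −0.98 for Padi6 to 0.18 for Bmp15 and 0 of 9 passed. Without the 2nd library labelled Fosl2cKO they ran from −1.64 for Ooep to −4.33 for Oosp1, and 8 of 9 passed, all but Ooep (adjusted p = 0.00852 to 0.0745), while 0.769% of all genes tested passed in that fit. Here the lone library labelled Fosl2cKO is assumed to vary like the Fosl2F/F pair. The single gene that passed over all barcodes, in other cells and in GC-like cells was Plb1, which is named after its values were seen. It had 0.202, 0.181, 355 and 339 CPM over all barcodes, so the libraries part by label.

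The difference between the condition's effect in oocyte barcodes and in other cells was tested itself, as an interaction. Its p-values rest almost wholly on a spread estimated across genes, with little weight on the spread of each gene's own libraries. The difference was positive for all 9 genes, where 30.9% of the 19205 genes tested were positive and their median was −0.49. These are not a like background, as most of the 19205 have few UMIs in oocyte barcodes. The fit in oocyte barcodes tested 1873 genes, the 9 among them, with a median log2 fold change of 0.01. Without its filter on low counts it tested 15270, with a median of −0.72. The interaction passed for 4 of 9, and 0.651% of all genes did (125 genes). Under DESeq2 it passed for Padi6 alone of the 9 (adjusted p = 0.0255, with 0.12% of all genes called), with Zp3 at 0.129 and Oosp1 at 0.253 and no adjusted p for Zp1. The 4 genes in edgeR were Zp3 (log2 difference 2.53, SE 0.57, adjusted p = 0.00747), Zp1 (2.28, SE 0.67, adjusted p = 0.0949), Padi6 (2.04, SE 0.59, adjusted p = 0.0925) and Oosp1 (2.02, SE 0.58, adjusted p = 0.0906). Zp2 was at 2.08 (SE 0.62, adjusted p = 0.106), and Gdf9, Nlrp5, Bmp15 and Ooep were at 1.205, 1.27, 0.88 and 0.82 (adjusted p = 0.546 to 1.0). The plot of condition effects shows the 4 quantities side by side.

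**Figure D5:**
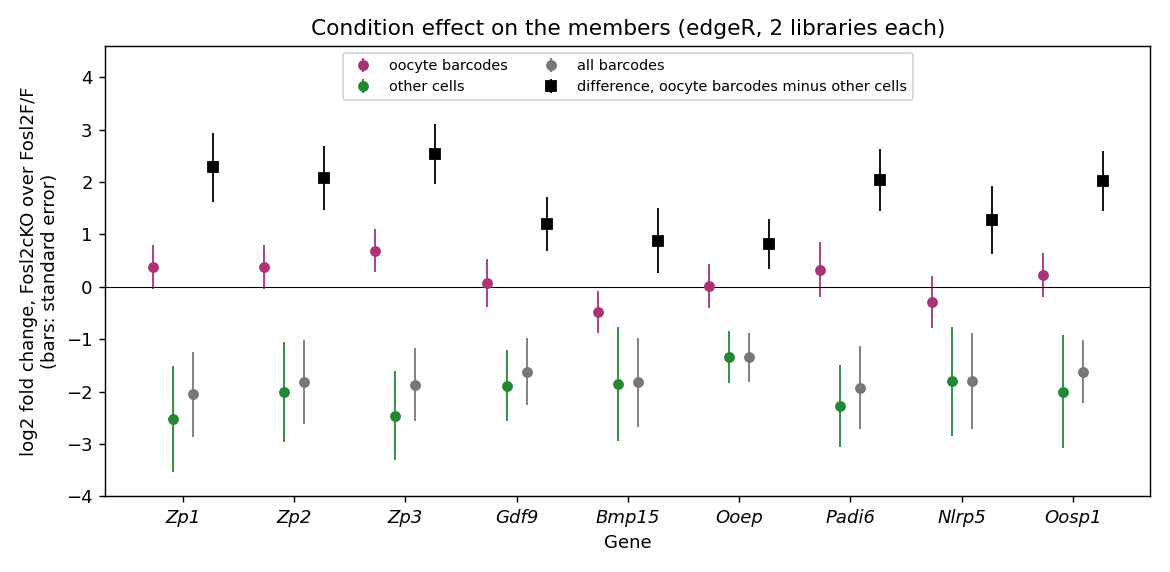
Log2 fold change of each gene, Fosl2cKO over Fosl2F/F, from edgeR with its standard error as a bar, in oocyte barcodes, in other cells and over all barcodes, and the difference of the first from the second (squares). Values in oocyte barcodes lie from −0.49 to 0.69, those in other cells from −2.53 to −1.35, and all 9 squares lie above 0.

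These calls rest on single libraries. Without the 2nd Fosl2F/F library, which had the highest level of all 9 genes in other cells, 0 of 9 genes passed the interaction and 8 of 9 were positive. Without the 1st library labelled Fosl2cKO also 0 passed, without the 1st Fosl2F/F library 5 did (0.777% of all genes), and without the 2nd labelled Fosl2cKO 6 did (0.444% of all genes). With the 4 libraries but barcodes chosen by both the rule and the cluster 0 of 9 passed, where 0.00522% of all genes did. It was also 0 of 9 with the looser rule, where 0.0723% of all genes passed, and with the stricter rule, where 0 genes passed. So few calls over all genes leave 0 of 9 with little to say about the 9.

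Genes that work with the 9 were read from a list of 14, of transcription factors of the oocyte, other subunits of the subcortical complex, relatives of Oosp1, the receptor Kit and Astl, the protease that cleaves Zp2. In oocyte barcodes 10 of the 14 were deep enough to test and 0 passed, with a median log2 fold change of 0.11, against 0.01 over all genes tested. The lowest adjusted p was 0.828. In other cells 13 of the 14 were tested and 0 passed, with a median of −0.90, from −2.89 for Oosp2 to 0.70 for Sohlh1, against −0.02 over all genes, and 10 of the 13 were highest in the 2nd Fosl2F/F library. The levels and fold changes that follow are those in oocyte barcodes. Zbed3, a partner in the complex, had 7851, 5983, 7187 and 9859 CPM. Oosp3, a relative of Oosp1, had 1643, 1280, 2151 and 1765 CPM, and Oosp2 had 569, 419, 599 and 602. Tle6 had 879, 924, 1334 and 1470 CPM and Khdc3 (FILIA) had 711, 834, 1062 and 1064, both partners of Ooep and Nlrp5 in the complex. Their log2 fold changes were 0.46 (SE 0.38) and 0.27 (SE 0.37), with adjusted p of 0.828 and 0.936. For Tle6, Khdc3, Oosp2 and Oosp3, 4 of the 10, both Fosl2cKO values were above both Fosl2F/F values, as for 25.9% of all genes tested. Lhx8, a homeobox factor of the early oocyte, had 272, 370, 517 and 308 CPM.

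On the receiving side, 23 receptors, signal carriers and response genes of Gdf9 and Bmp15 were read in GC-like cells. All 23 were tested and 0 passed, and 0.00578% of the 17295 genes did. Of the 9 oocyte transcripts themselves 0 passed in GC-like cells, with Gdf9 at a log2 fold change of −2.12 (SE 0.75, adjusted p = 1.0), and Gdf9 passed there under DESeq2 (adjusted p = 0.0995, with 0.966% of all genes called) and without the gene filter (adjusted p = 0.0481, with 0.776% called). Leaving out the 2nd Fosl2F/F library gave −0.68 for Gdf9 in these cells (adjusted p = 0.636). The median log2 fold change of the 23 was −0.10, from −3.09 for Grem1 to 0.58 for Amh, against −0.02 over all genes. Grem1, a BMP antagonist named here after its values were seen, had 139, 19.8, 6.63 and 12.9 CPM (adjusted p = 0.964), so the 1st Fosl2F/F library was far above the other 3. Of the receptors, Bmpr1b had 1333, 1132, 1431 and 1643 CPM and Bmpr2 had 999, 833, 848 and 1082, with log2 fold changes of 0.28 (SE 0.20) and 0.04 (SE 0.22). Amh, which Bmp15 is known to raise in GCs, had 133, 186, 248 and 236 CPM (log2 fold change 0.58, SE 0.19, adjusted p = 1.0). Kitl, the GC ligand of the oocyte receptor Kit, had 184, 353, 333 and 168 CPM, so the groups overlapped. Ldha, a glycolytic enzyme that oocytes promote in their GCs, had 701, 524, 467 and 443 CPM (log2 fold change −0.47, SE 0.21, adjusted p = 1.0), and Fst, which binds activin, had 386, 278, 261 and 336. Both Fosl2cKO values were above both Fosl2F/F values for 5 of the 23 (Bmpr1a, Bmpr1b, Acvr1b, Smad4 and Amh) and below both for 6 (Ptgs2, Ptx3, Tnfaip6, Grem1, Pfkp and Ldha), against 17% and 14.3% of all genes tested in GC-like cells.

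Of the 5005 genes ranked for likeness to the mean profile of the 9, the 8 most alike were E330034G19Rik (r = 0.969), Fbxw21 (0.967), Elobl (0.967), C86187 (0.966), Umodl1 (0.965), Gm10436 (0.965), Oas1h (0.964) and Oas1e (0.963). Likeness was Pearson's r of log2(CPM + 1) over 52 sums, 13 classes in 4 libraries, and the sums share libraries and depth, so it is a description. The 9 genes themselves ran from 0.917 for Ooep to 0.971 for Zp3, each being part of the mean it was compared with. Only genes with at least 20 UMIs in oocyte barcodes, where the 9 are high, were ranked. In oocyte barcodes E330034G19Rik had 2884, 2081, 4029 and 3277 CPM and Elobl had 2638, 1721, 2205 and 3725.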

How the data were processed

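The authors aligned reads to GRCm38 with CellRanger and deposited whole-number UMI counts of each gene in each barcode. The matrix header names version 7.1.0, another than the methods, and whether a correction by CellBender or intronic reads are in the counts is not given in the sources used here. Of the 4 libraries 0, and of the columns 0, were left out. Barcodes were kept as cells with 500 genes or more, over 1000 UMIs, a mitochondrial share under 10% and a hemoglobin share under 0.1%, and the cells scored highest by Scrublet (scanpy 1.11.5) were removed, at 0.8% per 1000 cells. Libraries were normalized with sctransform 0.4.2, integrated and clustered with Seurat 5.3.0 (3000 features, 2992 without those of the 9 genes among them, 30 dimensions, resolution 0.8) in R 4.3.3, giving 25 clusters. Clusters were named from fixed marker lists. UMIs summed per library were filtered with filterByExpr, scaled by TMM and tested with edgeR 4.0.16, with Benjamini-Hochberg adjustment. The interaction used 8 sums, with library as a covariate. The tests were tried on simulated data. Shares were compared with exact permutation tests, and intervals are exact binomial or Poisson at 95%.

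The 9 genes, the lists and the tests were chosen with earlier results of these data known. Genes named are the 9, those of the 2 lists that passed, otherwise up to 6 of each by level, and the 8 most alike with at least 20 UMIs in oocyte barcodes. The alternatives were DESeq2 1.42.0, its size factors, no gene filter, each library left out, the replicate number as a block, a threshold of 0.05 on the adjusted p alone, other rules for oocyte barcodes, other cell filters and other clusterings.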

Additional observations from a re-analysis of the deposited data

Results flagged for a closer look

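The effect of the condition differed between oocyte barcodes and other cells, by the interaction test of edgeR, for 4 of the 9 genes, with 0.651% of all genes called. The calls did not hold in several settings. Of the 9, 0 passed with the looser rule (0.0723% of all genes), with the stricter rule (0 genes called) and with barcodes by both rule and cluster (0.00522%). Under DESeq2 1 passed (0.12% of all genes). The log2 difference, oocyte barcodes minus other cells, was 2.28 for Zp1, 2.53 for Zp3, 2.04 for Padi6 and 2.02 for Oosp1. Without the 1st library labelled Fosl2cKO the values were 1.64, 2.07, 2.21 and 0.44. Without the 2nd Fosl2F/F library they were 0.43, 1.06, 1.70 and 0.65. Without its 2 barcodes above 20000 UMIs the values were 2.39, 2.64, 2.66 and 2.32, and Zp3 and Padi6 passed (adjusted p = 0.0405 and 0.0334), as did Zp2 (2.35, adjusted p = 0.0884), with 0.71% of all genes called in that fit. That library also has the lowest depth per cell and the highest level of the 9 genes in other cells. The part of these in the differences was not tested.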

How the results depend on the processing

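Counts of genes called moved with the tool. Of the 9 genes 0 passed under DESeq2 or without a gene filter over all barcodes, in oocyte barcodes and in other cells, while Gdf9 passed under both in GC-like cells (adjusted p = 0.0995 and 0.0481). DESeq2 called 148 genes over all barcodes, 1 in oocyte barcodes, 150 in other cells, 167 in GC-like cells and 23 in the interaction, against 1, 31, 1, 1 and 125 in edgeR. Without the filter on low counts edgeR called 20, 51, 3 and 201 in the first 4. In oocyte barcodes 0 genes were called at an adjusted p under 0.05 (179 at an unadjusted p under 0.05), and 0 with the stricter rule, the looser rule, the oocyte-like cluster and barcodes by both rule and cluster, 1 without the mitochondrial limit and 111 without barcodes over 20000 UMIs. For the interaction the counts were 1 with barcodes by both rule and cluster against cells by neither, 14 with the looser and 0 with the stricter rule. Leaving out each library in turn gave 1 to 99 genes over all barcodes, 10 to 100 in oocyte barcodes, 1 to 162 in other cells, 0 to 138 in GC-like cells and 14 to 154 in the interaction. The oocyte barcodes' share of the 9 genes' UMIs (mean 23.5%) was 28.1% by the looser rule and 16.4% with cells over 2000 UMIs only.

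The replicate numbers were taken as numbers only. The deviations of same-numbered libraries had correlations of −0.09 over all barcodes, −0.03 in oocyte barcodes and −0.06 in other cells. With 2 libraries per group this is a single value for each set, which cannot show whether these libraries are pairs. With the replicate block edgeR called 58 genes over all barcodes (0.28%), 0 in oocyte barcodes, 56 in other cells (0.277%) and 7 in GC-like cells (0.0405%). Among them were Padi6 over all barcodes (adjusted p = 0.0997) and Zp3, Padi6 and Oosp1 in other cells (adjusted p = 0.0797, 0.0740 and 0.0942).

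The direction of small log2 fold changes in oocyte barcodes turned in some settings. By the looser rule it was −0.27 for Zp1, −0.19 for Gdf9, −0.020 for Ooep, 0.26 for Nlrp5 and −0.047 for Oosp1. By the stricter rule it was −0.15 for Gdf9, −0.19 for Ooep and −0.040 for Oosp1, and by rule and cluster together −0.071 for Gdf9 and −0.11 for Ooep. It was −0.18 for Zp2 by the oocyte-like cluster, −0.040 for Gdf9 with the block, −0.031 for Ooep without the gene filter and −0.0028 without the mitochondrial limit, and 0.10 for Nlrp5 without barcodes over 20000 UMIs. Leaving out each library in turn gave −0.71 to 0.55 for Gdf9, −0.093 to 0.10 for Ooep, −0.96 to 1.10 for Padi6, −0.82 to 0.82 for Nlrp5 and −0.060 to 0.42 for Oosp1 in oocyte barcodes. It gave −3.75 to 0.18 for Bmp15 and −3.53 to 0.14 for Nlrp5 in other cells, −3.04 to 0.0072 for Nlrp5 over all barcodes and −0.51 to 2.62 for Bmp15 in the interaction. The mean log2 ratio of shares of Zp1, other cells over oocyte barcodes, was −0.0052 and 0.019 without the barcode with the most UMIs of the 9 genes. The cause of these turns was not tested. The barcodes by rule and cluster together, those over 20000 UMIs, the barcode with the most UMIs of the 9 genes, the other cells without the oocyte-like cluster or epithelial-like cells and all alternatives of the interaction were chosen after the data had been seen.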
